A study of Homo sapiens with 36 samples.

Results

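The RNA of U373neo cells 2 h after UV was set against that of untreated U373neo cells. U373 is an established human glioblastoma line that, according to the study, does not express CC3. U373neo is 1 clone of it that carries the empty vector, so its replicates are cultures of 1 clone. The UV cells received 20 J/m2 according to the labels (the study's methods name another dose) and recovered for 2 h, and the untreated cells were not irradiated. The 9 arrays of each group were chosen by their labels, 18 of the 36 arrays in the series, and stand for 3 biological replicates of UV cells and 3 of untreated cells, each hybridized to 3 technical arrays. The other 18 arrays hold U373cc3, 1 clone of the same line transfected to express CC3, with and without UV in the same way. They were used here for a shared estimate of the spread and to test whether the UV change differed between the clones.

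UV light joins neighbouring pyrimidines in DNA into dimers. RNA polymerase II stalls at such lesions on the transcribed strand, and nucleotide excision repair removes them, by a branch that follows the stalled polymerase and by a genome-wide branch in which DDB2 and XPC find the lesions. The longer a gene, the more likely it is to carry a lesion on its transcribed strand. UV also starts a stress response through MAP kinases, and the immediate early genes it induces, such as FOS, EGR1 and ATF3, are mostly short and encode transcription factors or feedback regulators. A steady-state RNA level reflects both synthesis and decay, so after a short recovery only RNAs that decay fast can fall far. What part these processes had in the changes below was not tested.

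Each value is a normalised fluorescence intensity in array units. Intensities do not compare genes with each other, because probes differ in how well they bind. Of 30968 gene probes, 11602 had values on all arrays. The intensities of technical arrays of a U373neo replicate correlated with r between 0.978 and 0.996, arrays of different replicates of a group between 0.972 and 0.996, and UV with untreated arrays between 0.936 and 0.964. The SD between replicate means was 0.168 on the log2 scale in UV cells and 0.184 in untreated cells. All 9 UV arrays came from 1 range of chip serial numbers, against 5 of the 9 untreated arrays, with all 3 arrays of untreated replicate 1 in another range. A further fit used single arrays and took the arrays of a replicate as correlated. In it 6787 probes passed with arrays from the range of the UV arrays alone, against 7212 with all arrays. That range held no array of untreated replicate 1. The main fit, on replicate means, gave 6905. The defining astrocyte and glioma markers GFAP, VIM, NES and S100B had no value on all arrays, so the labelled tissue could not be checked on them, and 8 of 21 such markers were measured, among them SOX9, EGFR, NFIA and GLUL. Their summed intensity lay between 32659 and 33808 in UV replicates and between 41166 and 42221 in untreated replicates. Of 11 fibroblast markers 4 were measured, of which 3 rose and none fell, and their summed intensity lay between 7459 and 7838 in UV replicates and between 5304 and 5822 in untreated replicates. The 4 fibroblast markers had a median length of 13.2 kb, and of all genes of 10 to 20 kb 47.8% rose and 10.8% fell. Of the 8 astrocyte and glioma markers 4 fell and none rose. Their median length was 99.7 kb, and of all genes of 50 to 100 kb 51.7% fell. U373neo is 1 clone, and whether its cultures held other cells was not tested. None of the 12 epithelial markers, 2 of 15 leukocyte markers and 11 of 17 neuron markers were measured.

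UV changed the level of most RNAs that could be measured. Of the 11602 probes, 6905 (59.5%) passed an adjusted p of 0.05 by limma, 3804 (32.8%) higher and 3101 (26.7%) lower in UV cells. With 1 probe standing for each of 7998 named genes, 2578 genes rose (32.2%), 2404 fell (30.1%) and 3016 did not pass. The UV replicates and the untreated replicates did not overlap for 67.0% of the genes. The falls were deeper than the rises. By at least 2-fold, 124 genes rose and 506 fell, and by at least 4-fold 8 rose and 25 fell. The split between rises and falls depends on how the arrays are scaled to each other: the median probe moved by 0.07 on the log2 scale after joint normalisation, by -0.05 as deposited and by 0.19 with each array centred on its median, and 55.1% of the changed probes rose in the joint normalisation, 42.2% as deposited and 65.5% after centring. Changes are therefore relative to the other RNAs on the array. As these are bulk cultures, fewer cells with an RNA and less of it per cell cannot be told apart.

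Immediate early genes, which cells transcribe within minutes of a stimulus without new protein synthesis, rose more often than they fell. Of 32 measured members 20 rose and 5 fell, with a median log2 change of 0.60, against 0.04 over all genes. These genes are short, with a median of 4.3 kb, and of all genes up to 5 kb 62.3% rose, with a median of 0.36. ATF3, a stress-induced repressor of the ATF/CREB family, had intensities of 4590, 4674 and 4376 in UV cells against 918, 1017 and 941 in untreated cells. It rose 4.75-fold (log2 change 2.25, SE 0.09, limma adjusted p = 1.1e-08). FOS, the partner of JUN in the transcription factor AP-1, stood at 1096, 1317 and 1254 in UV cells against 420, 423 and 398 in untreated cells. It rose 2.95-fold (log2 change 1.56, SE 0.08), and its relative FOSB 2.63-fold. EGR1, a zinc finger transcription factor, had 1236, 1224 and 1233 in UV cells against 605, 636 and 672 in untreated cells, and its rise was smaller, 1.93-fold (adjusted p = 3.8e-05). JUN itself, at 15461, 16831 and 15422 in UV cells and 15570, 15357 and 13566 in untreated cells, overlapped between the groups and did not pass (adjusted p = 0.35).

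Among the feedback regulators and secreted factors of this list, HBEGF, a ligand of the EGF receptor, had 907, 960 and 938 in UV cells against 205, 214 and 217 in untreated cells. Its rise was 4.41-fold, with an SE of 0.07 on the log2 scale. SNAI1, a repressor of epithelial genes, rose 4.03-fold, SERTAD1, a cofactor of cyclin D kinases and E2F, 3.46-fold, and PLK3, a stress-activated kinase, 3.30-fold. RGS2, which switches off G protein signalling, rose 2.77-fold and the synaptic immediate early gene ARC 2.65-fold. IRF1, an interferon-regulated transcription factor, rose 2.91-fold but with an SE of 0.30. Not all members rose. MYC, the growth-promoting transcription factor, had 5936, 7826 and 7087 in UV cells against 17789, 15194 and 16600 in untreated cells. Its level was 2.39-fold lower after UV (adjusted p = 1.5e-05), the deepest fall in the list. Among the ID proteins, which block helix-loop-helix factors, ID1 fell by 0.59 and 1 probe of ID3 by 0.46 on the log2 scale, while the other ID3 probe (0.14) and ID2 (-0.07) did not pass.

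The promoters of FOS, EGR1, GADD45B and HEXIM1 are printed as examples of short genes that rose and whose promoter window held a match to a core or response element. They were chosen after the search. Each sequence runs 5′ to 3′ from 250 bases before to 50 bases after the annotated start, from RefSeq on GRCh38.p14. Capitals mark the TATA box (TATAAA, either strand) in FOS, GADD45B and HEXIM1 and the CArG box, the binding motif of serum response factor, in EGR1. The cyclic AMP response element (TGACGTCA) and the AP-1 site (TGANTCA) were also searched and were not in these windows, and the matches marked do not overlap.
FOS, chr14:75278578-75278877, plus strand: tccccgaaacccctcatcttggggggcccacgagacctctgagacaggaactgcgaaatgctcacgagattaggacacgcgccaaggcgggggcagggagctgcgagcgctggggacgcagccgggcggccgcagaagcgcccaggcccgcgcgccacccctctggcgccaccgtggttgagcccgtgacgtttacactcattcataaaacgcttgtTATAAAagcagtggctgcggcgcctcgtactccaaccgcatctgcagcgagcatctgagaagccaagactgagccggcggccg
EGR1, chr5:138465229-138465528, plus strand: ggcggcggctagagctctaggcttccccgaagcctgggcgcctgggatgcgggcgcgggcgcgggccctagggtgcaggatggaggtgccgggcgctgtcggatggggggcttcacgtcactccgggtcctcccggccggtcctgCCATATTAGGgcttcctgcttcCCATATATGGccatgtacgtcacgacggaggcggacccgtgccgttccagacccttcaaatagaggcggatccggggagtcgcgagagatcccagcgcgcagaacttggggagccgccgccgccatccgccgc
GADD45B, chr19:2475877-2476176, plus strand: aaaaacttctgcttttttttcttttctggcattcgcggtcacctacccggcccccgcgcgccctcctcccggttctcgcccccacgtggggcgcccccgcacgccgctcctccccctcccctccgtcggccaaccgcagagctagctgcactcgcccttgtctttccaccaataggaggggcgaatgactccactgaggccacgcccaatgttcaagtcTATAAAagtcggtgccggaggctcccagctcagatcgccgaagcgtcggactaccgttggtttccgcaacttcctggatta
HEXIM1, chr17:45148225-45148524, plus strand: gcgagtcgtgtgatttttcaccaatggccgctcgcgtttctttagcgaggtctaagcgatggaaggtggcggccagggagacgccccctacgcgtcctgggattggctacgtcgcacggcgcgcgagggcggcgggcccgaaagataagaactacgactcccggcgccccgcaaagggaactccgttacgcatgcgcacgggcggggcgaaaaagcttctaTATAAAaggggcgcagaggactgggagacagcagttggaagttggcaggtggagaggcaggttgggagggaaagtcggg
The TATA box began at position -33 relative to the start in FOS, -31 in GADD45B and -29 in HEXIM1, and the CArG boxes of EGR1 began at -105 and -83. Of the 99 genes with a promoter in the table among those that rose at least 2-fold, 15 held a TATA box (15.2%). This compares with 26 of 443 among those that fell at least 2-fold (5.87%), 364 of 6682 tested genes (5.45%) and 12% of all 27305 promoters. The CArG box was in 4 of the 99, the AP-1 site in 3 and the cyclic AMP response element in 1, against shares of 1.11%, 3.94% and 3.49% of the tested genes. These are matches of letters in a short window and are given without a test.

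Of the genes that hold back the cell cycle, CDKN2B and GADD45B were among the largest rises. Of 14 measured cyclin-dependent kinase inhibitors, GADD45 and antiproliferative genes, 8 rose and 3 fell. Their median length was 5.59 kb, and of all genes of 5 to 10 kb 59.1% rose and 5.97% fell. The median log2 change was 0.51 in the list and 0.33 in that class. CDKN2B, the kinase inhibitor p15, had 2631, 2480 and 2475 in UV cells against 443, 408 and 426 in untreated cells. UV replicates were close to each other and all about 6 times the untreated level, a 5.94-fold rise (log2 change 2.57, SE 0.11, adjusted p = 1.5e-08). GADD45B, which activates the p38 and JNK cascade, had 1528, 1511 and 1420 in UV cells against 312, 363 and 357 in untreated cells, a 4.33-fold rise, and GADD45A rose 1.88-fold. GADD45G went the other way and fell by 0.28. CDKN1A, the kinase inhibitor p21, had 3999, 4305 and 4092 in UV cells against 2579, 3176 and 3018 in untreated cells. The groups did not overlap, and the rise was 1.42-fold (adjusted p = 8.0e-04). CDKN1B, p27, fell by 0.37 on the log2 scale.

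Among cell death and damage response genes, 8 of 27 rose and 6 fell, shares near those of all genes. PMAIP1, the BH3-only protein NOXA, had 1868, 1990 and 1929 in UV cells against 464, 591 and 664 in untreated cells, and its 3.40-fold rise was the largest of the list. FDXR, the mitochondrial adrenodoxin reductase, rose 1.89-fold, the pore-forming BAX 1.73-fold, and the BH3-only BAD by 0.73 on the log2 scale. Among the falls were APAF1, the core of the apoptosome, 1.94-fold lower, PPM1D, a phosphatase that ends DNA damage signalling, 1.93-fold lower, and the caspase inhibitor XIAP, with a log2 change of -0.58 and replicates that overlapped. The probe of HTATIP2, the gene of CC3, had no value on all arrays.

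**Figure D1:**
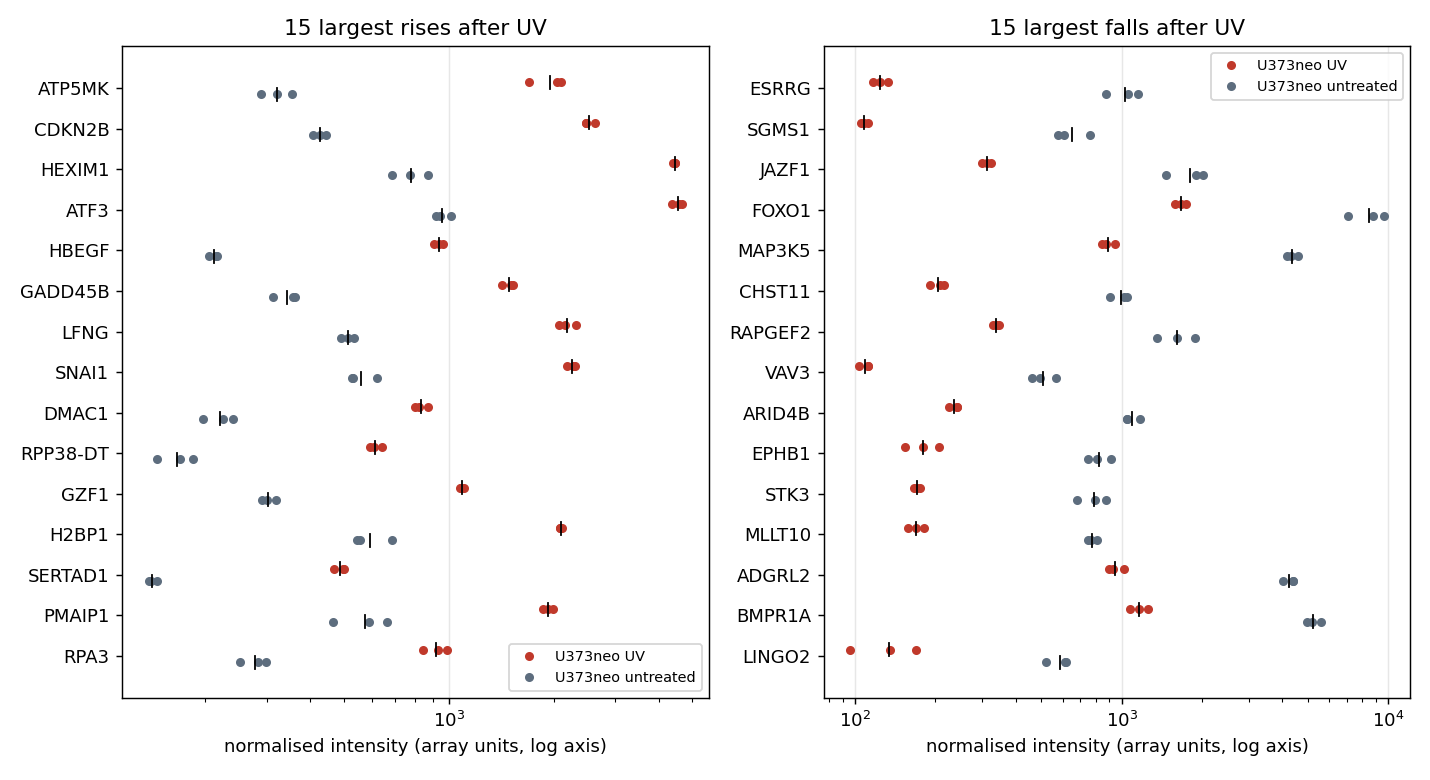
Normalised intensity (array units, log axis) of the 15 genes that rose most and the 15 that fell most after UV in U373neo. Points are the 3 replicates of UV and of untreated cells, and black ticks are their means. The groups are apart in every gene shown because genes were chosen that way, and the distance between them is widest for ESRRG, with a measured 8.22-fold.

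The largest rise of all was that of ATP5MK, a small subunit of mitochondrial ATP synthase, with 2042, 1698 and 2095 in UV cells against 356, 321 and 290 in untreated cells, or 6.03-fold (log2 change 2.59, SE 0.10). The other short subunits of respiration moved much less, as given below. LFNG, the glycosyltransferase that modifies Notch, rose 4.25-fold, with 2068, 2325 and 2155 in UV cells against 534, 490 and 515 in untreated cells. DMAC1, a factor in the assembly of respiratory complex I, rose 3.77-fold, GZF1, a zinc finger repressor, 3.59-fold, and 1 probe of RPA3, the smallest subunit of the single-strand DNA binding complex RPA, 3.32-fold. The other probe of RPA3 did not pass (log2 change 0.15). The divergent transcript RPP38-DT rose 3.71-fold and the histone pseudogene H2BP1 3.54-fold. The probe of H2BP1 may also bind RNA of other H2B genes, which are close to identical in sequence. The 15 genes with the largest rise had a median length of 6.41 kb, and the longest was RPA3 at 82.1 kb.

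The largest falls were in long genes of many functions. ESRRG, an orphan nuclear receptor spanning 634 kb, had 124, 132 and 117 in UV cells against 1054, 874 and 1152 in untreated cells. The UV values were near the low end of the scale, and the fall was 8.22-fold (log2 change -3.04, SE 0.12, adjusted p = 1.1e-08). FOXO1, a transcription factor downstream of AKT, had 1590, 1737 and 1664 in UV cells against 9620, 7057 and 8785 in untreated cells, 5.06-fold lower. MAP3K5, the stress kinase ASK1, had 874, 947 and 847 in UV cells against 4587, 4322 and 4160 in untreated cells, 4.90-fold lower. In both genes the replicates of the groups were apart, which the choice of the largest falls required. Both were bright enough in untreated cells to show the fall in full. BMPR1A, a receptor for bone morphogenetic proteins, was 4.49-fold lower, with 1078, 1161 and 1257 in UV cells against 4944, 5571 and 5172 in untreated cells.

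The other members of the 15 largest falls were SGMS1, sphingomyelin synthase 1 (5.94-fold lower), the zinc finger gene JAZF1 (5.71-fold), CHST11, a chondroitin sulfotransferase (4.83-fold), RAPGEF2, an exchange factor for Rap (4.73-fold), VAV3, a guanine nucleotide exchange factor (4.63-fold), and ARID4B, a subunit of a SIN3 deacetylase complex (4.63-fold). EPHB1, an Eph receptor, was 4.59-fold lower, STK3, the Hippo kinase MST2, 4.58-fold, MLLT10, a cofactor of the histone methyltransferase DOT1L, 4.57-fold, the adhesion receptor ADGRL2 4.49-fold and the membrane protein LINGO2 4.48-fold. The 15 genes had a median length of 320 kb, with FOXO1 the shortest at 111 kb. For SGMS1, VAV3 and LINGO2 the UV intensities, between 96.0 and 170, were near the low end of the array, where further loss cannot be seen. The same holds for other genes with UV intensities under 200, among them ESRRG, and ARID2, REV3L, NR3C1, SMURF2, ACVR1, APC and ZNF438 described below, so that their folds may understate the fall.

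Gene length, taken as the span of the gene in RefSeq with its longest annotated isoform, went with the direction of the change. Genes that rose had a median length of 13.2 kb (quartiles 6.30 and 28.1 kb), genes that fell 65.0 kb (quartiles 35.7 and 120.8 kb), and those that did not pass 27.9 kb. Of 746 genes up to 5 kb long, 465 rose and 37 fell, 62.3% and 4.96%. From 5 to 10 kb 59.1% rose and 5.97% fell, and from 10 to 20 kb 47.8% and 10.8%. The shares were close to each other from 20 to 50 kb, where 25.9% rose and 30.7% fell. Above that falls prevailed, with 14.2% rising and 51.7% falling from 50 to 100 kb, 9.30% and 59.9% from 100 to 200 kb, and 7.20% and 53.4% from 200 to 300 kb. Of 248 genes over 300 kb, 30 rose (12.1%) and 145 fell (58.5%), so the share of falls was highest from 100 to 200 kb. The median log2 change was 0.36, 0.33, 0.22, -0.01, -0.29, -0.42, -0.34 and -0.49 in these 8 classes, from short to long.

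Large changes were split by length more sharply. Of the 506 genes that fell at least 2-fold, 455 were over 50 kb, and of the 124 that rose at least 2-fold, 111 were up to 20 kb and 3 over 50 kb. By the probe that stood for each gene, none over 100 kb rose 2-fold, and 1 gene up to 5 kb fell 2-fold. Another probe of GFOD1, which spans 130 kb, did rise by 1.30. The class medians were close in each UV replicate: for genes up to 5 kb they were 0.40, 0.36 and 0.34 in the 3 UV replicates set against the untreated mean, and for genes over 300 kb -0.57, -0.44 and -0.46. Across the 7961 genes with a length, Spearman's correlation of length and log2 change was -0.54. This is a description over genes of the same arrays, which are not independent replicates. It was -0.55, -0.53 and -0.50 with each UV replicate alone, and -0.51, -0.59 and -0.56 in genes of dim, middle and bright mean level. Length and mean level themselves had a correlation of -0.17. Scaling moved all classes together: the medians of the shortest and longest classes were 0.30 and -0.65 as deposited, and 0.54 and -0.41 with arrays centred on their medians.

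**Figure D2:**
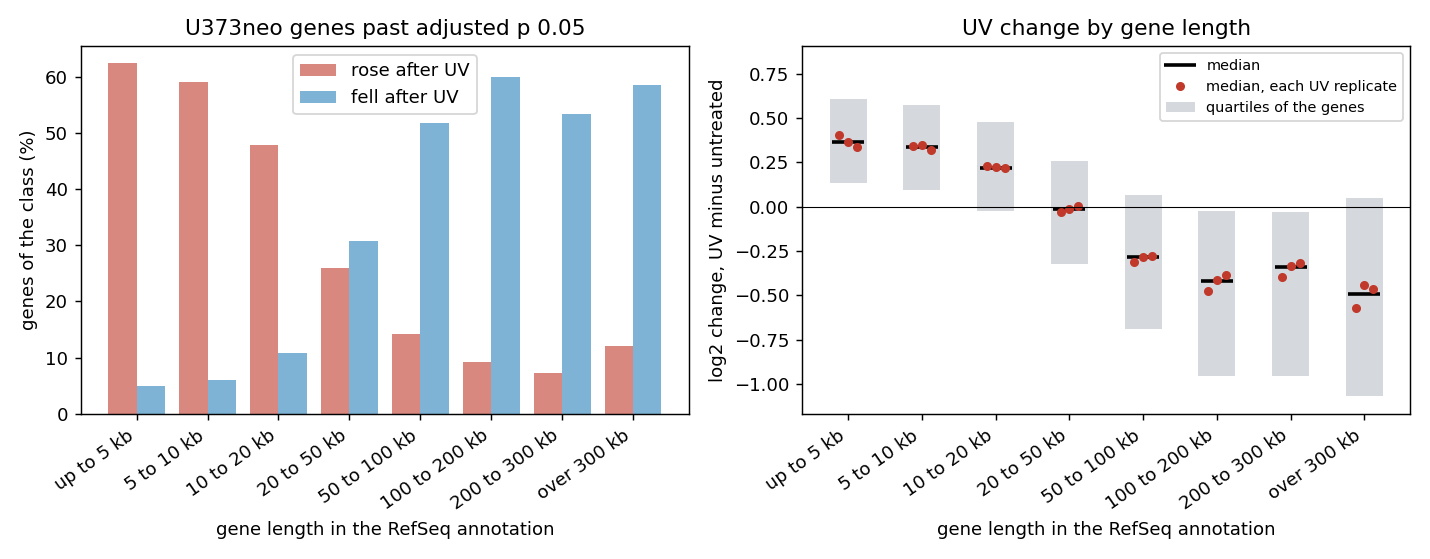
Left, share of genes (%) that rose or fell after UV in U373neo in 8 classes of gene length. Right, log2 change (UV minus untreated) in the same classes, with grey bars from the lower to the upper quartile of genes, black ticks for the median and red points for the median of each UV replicate against the untreated mean. The median goes down in steps to -0.42 in genes of 100 to 200 kb, and the red points lie close together in each class.

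Some genes went against their length, and those named here were chosen after their values were seen. Of 1668 genes up to 10 kb, 92 fell. CENPA, the centromeric histone H3 variant, is 8.53 kb long and had 5369, 5432 and 5714 in UV cells against 15972, 16790 and 16907 in untreated cells. By this probe it was 3.01-fold lower, by far outside the spread of either group. The other probe of CENPA fell less, by 0.42 on the log2 scale. MYC (7.52 kb), the G2 cyclin CCNA2 (7.44 kb, log2 change -0.83), and 1 of 2 probes of PHLDA1 (6.33 kb, 1.82-fold lower) also fell. MIEN1 was 2.75-fold lower, but its replicates were far apart, with 4310, 3345 and 1935 in UV cells and 6255, 8804 and 10526 in untreated cells. Of 1329 genes over 100 kb, 125 rose and 775 fell. SGK1, a kinase induced by stress and glucocorticoids with a span of 149 kb, had the largest of these rises, 1.93-fold, with 196, 227 and 211 in UV cells against 84.5, 133 and 117 in untreated cells. The span of SGK1 counts its longest isoform. PRKCZ, an atypical protein kinase C, rose 1.75-fold, and the growth factor NRG1 by 0.57. The circadian receptor RORA, with a span of 741 kb, rose by 0.54.

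**Figure D3:**
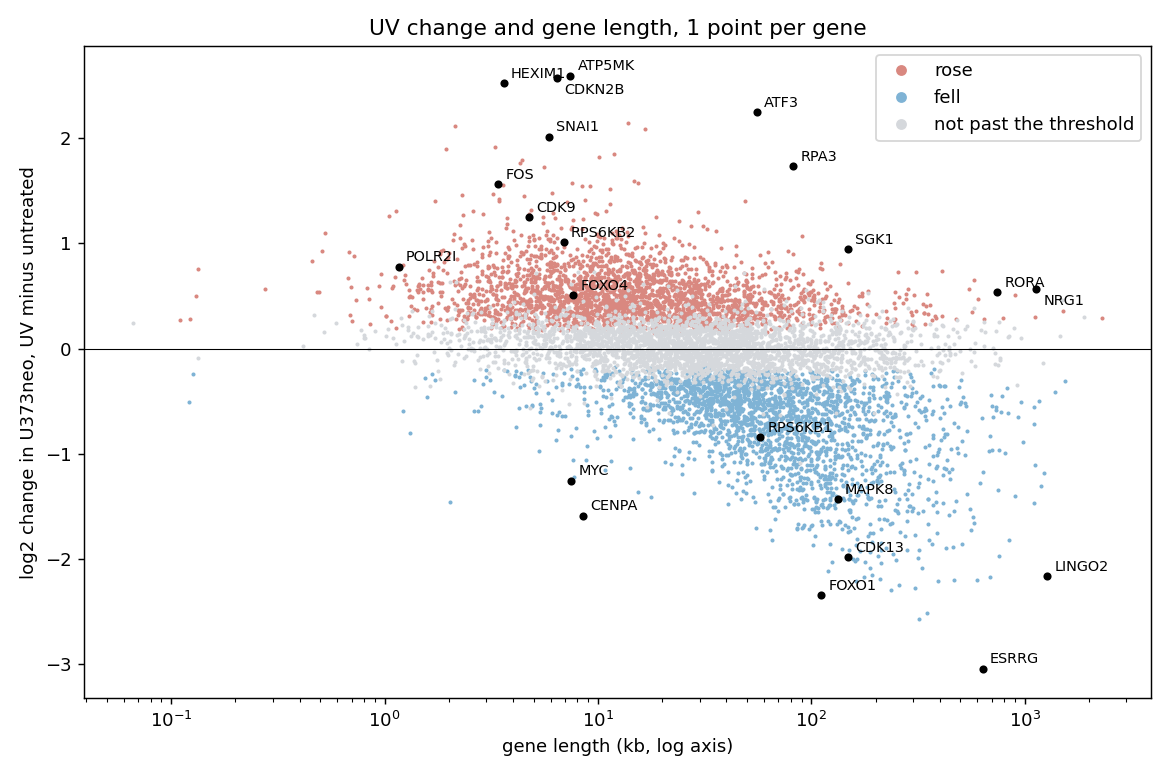
Log2 change in U373neo (UV minus untreated) of each gene against its length (kb, log axis). Red genes rose, blue genes fell and grey genes did not pass the threshold. The labelled genes include short genes that fell (CENPA, MYC) and longer genes that rose (ATF3, SGK1), and ESRRG is the lowest point at -3.04.

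The same split ran through groups of related genes. In 20 lists with at least 3 measured members up to 20 kb and 3 over 100 kb, the median of the short members was above that of the long members in all 20. The lists had been chosen with results of these data known, and share some genes, so this is a count and not a test. The machinery that releases paused RNA polymerase II shows it. HEXIM1, the inhibitor that holds the elongation kinase P-TEFb inactive in the 7SK particle, is 3.62 kb long and had 4467, 4465 and 4408 in UV cells against 873, 772 and 688 in untreated cells. UV replicates were nearly equal and 5.75-fold above untreated (log2 change 2.52, SE 0.10). CDK9, the kinase of P-TEFb, rose 2.37-fold, at low intensities of 225, 222 and 228 in UV cells against 117, 89.1 and 82.0 in untreated cells. MEPCE, which caps 7SK RNA, rose 1.42-fold. The transcriptional kinases of long genes went down: CDK13 (149 kb) had 201, 234 and 231 in UV cells against 1113, 802 and 750 in untreated cells, 3.95-fold lower, and CDK12 (106 kb) was 1.67-fold lower. AFF1, the scaffold of the super elongation complex, was 2.82-fold lower with an SE of 0.54. Its U373neo replicates were close, at 2252, 2494 and 2246 in UV cells against 6602, 6554 and 6552 in untreated cells, and the SE shares the spread of the other clone. In all, 9 of the 23 elongation genes rose and 8 fell, where 32.2% of all genes rose and 30.1% fell.

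Of 50 subunits of RNA polymerase II, Mediator and the general factors, 19 rose and 16 fell. The list had a median length of 19.4 kb, and of all genes of 10 to 20 kb 47.8% rose and 10.8% fell. POLR2I, a small polymerase subunit from a gene of 1.17 kb, rose 1.72-fold, and MED29 and MED20 of Mediator by 0.58 and 0.57. MED13L, which links Mediator to its kinase module, was 3.77-fold lower, CDK8, the kinase itself, 2.94-fold lower, and TAF4, a TFIID subunit, fell by 1.33. All 6 members over 100 kb fell, and 15 of 28 up to 20 kb rose and 2 fell. Splicing factors were less divided, with 10 of 55 up and 17 down. HNRNPA0 rose 2.66-fold by 1 probe and by 0.75 on the log2 scale by the other. RBM39, a coactivator and splicing factor, had 4216, 4274 and 4088 in UV cells against 11291, 11939 and 11833 in untreated cells, 2.79-fold lower. SNRPD2, a core protein of spliceosomal particles, passed with a 2.49-fold rise, but the UV replicates, 519, 157 and 176, were uneven against 124, 113 and 66.3 in untreated cells.

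Chromatin regulators, many of them long genes (median 81.9 kb), fell more often than they rose. Of 69 measured, 3 rose, 44 fell and 22 did not pass, with a median of -0.45, where 51.7% of all genes of 50 to 100 kb and 59.9% of those of 100 to 200 kb fell. The 29 members over 100 kb had a median of -0.92, and 23 of them fell and none rose. ARID2, a subunit of the PBAF remodelling complex, had 119, 126 and 116 in UV cells against 484, 479 and 509 in untreated cells, 4.08-fold lower. CDYL, a corepressor that reads methylated histones, was 4.02-fold lower and SETD2, which trimethylates histone H3 lysine 36 on transcribed genes, 3.35-fold lower. The acetyltransferase CREBBP stood at 4053, 4103 and 3807 in UV cells against 9641, 9228 and 10227 in untreated cells, 2.43-fold lower. The members that rose were the deacetylase HDAC3 (log2 change 0.51), the remodeller CHD3 (0.45) and CBX5 (0.30), the heterochromatin protein HP1 alpha.

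Ubiquitin ligases and proteases fell as often, with 39 of 57 lower and 4 higher (median -0.49). Their median length was 102 kb. Of all genes of 100 to 200 kb 59.9% fell and 9.30% rose, with a median of -0.42. FBXO11, a substrate adaptor of SCF ligases, was 3.21-fold lower, the ligase SMURF2 was 2.83-fold lower, and the protease USP15 was 2.76-fold lower. In the nuclear pore and its transport factors 27 of 55 fell and 8 rose. These genes had a median length of 59.4 kb, and of all genes of 50 to 100 kb 51.7% fell and 14.2% rose. NUP153, on the nuclear face of the pore, had 3223, 2848 and 3452 in UV cells against 8810, 8146 and 8628 in untreated cells, 2.69-fold lower, and the importin alpha KPNA3 fell by 1.43. NXT1, a cofactor of mRNA export, rose by 0.60. XPO1, the main exportin of proteins, fell by 0.72.

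**Figure D4:**
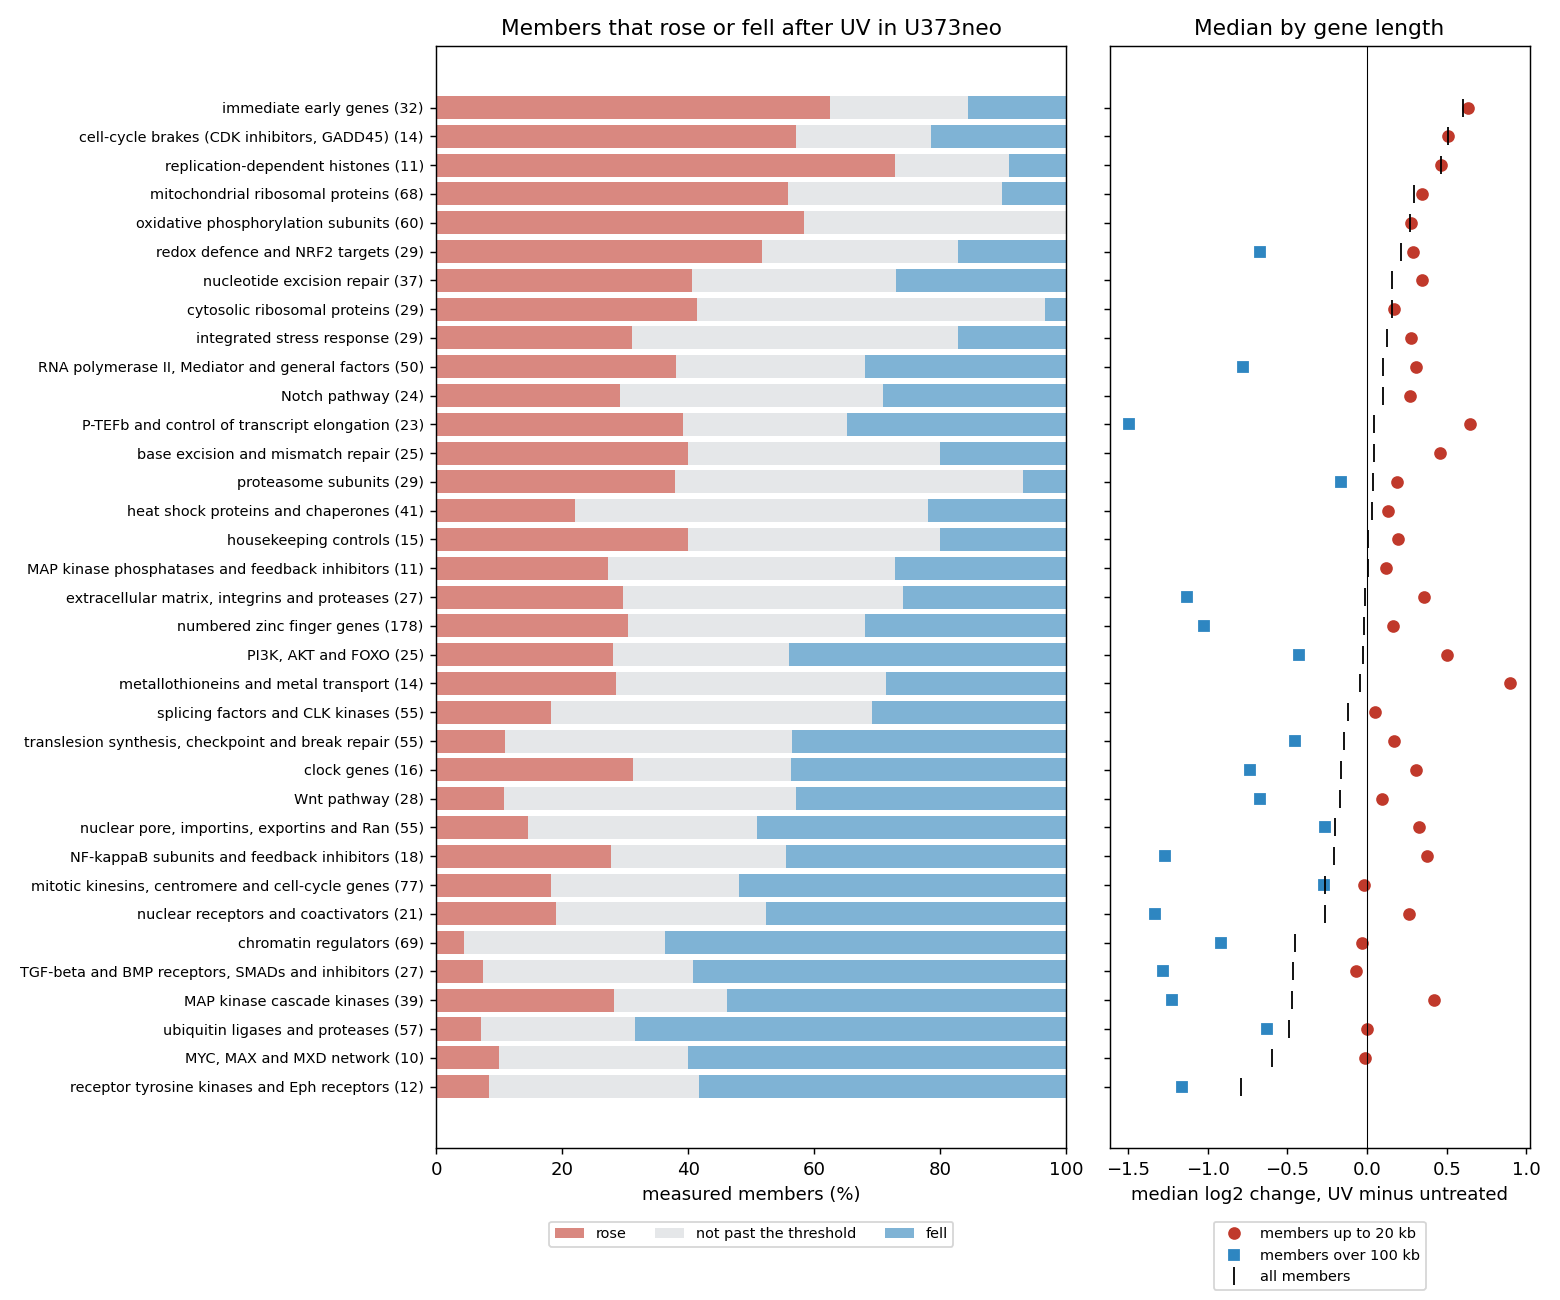
Left, share of measured members (%) of each list that rose, did not pass or fell after UV in U373neo, with the number measured in parentheses (lists of at least 10, without the cell death list). Right, median log2 change of all members (ticks), of members up to 20 kb (circles) and of members over 100 kb (squares), where 3 or more were measured. Where both symbols are drawn the circle is to the right, and chromatin regulators have a median of -0.45.

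Nucleotide excision repair, which removes UV lesions, was divided, with 15 of 37 members up, 10 down and a median of 0.16. The list had a median length of 33.7 kb, and of all genes of 20 to 50 kb 25.9% rose and 30.7% fell. DDB2, which recognises UV lesions in chromatin, had 1372, 1497 and 1561 in UV cells against 840, 865 and 871 in untreated cells. The groups did not overlap, and the rise was 1.72-fold (adjusted p = 4.1e-06). POLE4, a small subunit of DNA polymerase epsilon, rose 1.83-fold, ERCC1, part of the nuclease that cuts 5′ of the lesion, 1.59-fold, the TFIIH helicase ERCC2 by 0.67 and 1 of 2 probes of XPC 1.19-fold. XPA (-0.01, adjusted p = 0.94) and DDB1 (0.02) did not pass. The TFIIH subunits that fell were MNAT1, 1.94-fold lower, CDK7, 1.65-fold lower, and GTF2H1 with -0.67. PCNA, the sliding clamp, was near the upper limit of the scanner at 64502, 63630 and 62817 in UV cells and 63488, 64850 and 65120 in untreated cells, so that a change could not be seen there.

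In base excision and mismatch repair 10 of 25 rose and 5 fell. Their median length was 30.4 kb, and of all genes of 20 to 50 kb 25.9% rose and 30.7% fell. The glycosylases MPG (1.73-fold), NEIL1 (0.72), MUTYH (0.65) and UNG (0.63) rose, the last 3 given as log2 changes, and the glycosylases TDG and NEIL3 fell, each by 0.94 on the log2 scale. Translesion synthesis, checkpoint and break repair genes fell more often, 24 of 55, and 6 rose. Their median length was 54.1 kb, and of all genes of 50 to 100 kb 51.7% fell and 14.2% rose. REV3L, the catalytic subunit of polymerase zeta that copies past UV lesions, had 158, 188 and 195 in UV cells against 647, 607 and 594 in untreated cells, 3.43-fold lower. Its small partner MAD2L2 rose by 0.69. UVRAG, an autophagy protein named for UV resistance, was 4.24-fold lower, the BRCA1 partner BARD1 2.29-fold lower, and 1 probe of the checkpoint clamp subunit RAD9A rose by 0.79 while its other probe did not pass (0.08). The kinases ATR (-0.01) and ATM (-0.03) are long genes, 130 and 146 kb, whose replicates overlapped and which did not pass.

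MAP kinase genes fell more often than they rose, 21 of 39 against 11. The list had a median length of 60.0 kb, and of all genes of 50 to 100 kb 51.7% fell and 14.2% rose. Among the stress kinases MAPK8, JNK1, and MAPK14, p38 alpha, the brighter probe of MAPK8 had 253, 297 and 295 in UV cells against 714, 831 and 735 in untreated cells, 2.70-fold lower, and MAPK14 was 2.35-fold lower. The other MAPK8 probe did not pass (log2 change 0.04). Members from short genes rose, among them MAPK12, p38 gamma, 1.65-fold and MAPK3, ERK1, 1.43-fold. Of the 13 kinases over 100 kb 12 fell and none rose, and of the 10 up to 20 kb 9 rose and none fell. The phosphatase DUSP1, which switches MAP kinases off, rose by 0.64, and DUSP16 fell by 1.42.

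Related genes of the PI3K pathway also went apart. RPS6KB2, an S6 kinase from a gene of 6.91 kb, had 2817, 2712 and 2840 in UV cells against 1421, 1324 and 1404 in untreated cells, a 2.02-fold rise. Its paralogue RPS6KB1, 57.5 kb long, had 1136, 1180 and 1264 in UV cells against 2063, 2299 and 2058 in untreated cells, 1.79-fold lower. FOXO4 rose 1.42-fold, while FOXO1 fell. PIK3R1, the regulatory subunit p85 alpha, was 3.27-fold lower.

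At the cell surface, 7 of 12 receptor tyrosine kinases fell and 1 rose, with a median of -0.79 and a median length of 144 kb. Of all genes of 100 to 200 kb 59.9% fell and 9.30% rose. FGFR2 had 2381, 2075 and 2448 in UV cells against 11104, 10092 and 8676 in untreated cells, 4.32-fold lower. The receptors of IGF1, IGF1R, 2.94-fold lower, and of EGF, EGFR, 2.18-fold lower, also fell, whereas the EGF receptor ligand HBEGF was among the largest rises. TYRO3 was the member that rose (0.54). In TGF-beta and BMP signalling 16 of 27 fell, among them the type I receptors BMPR1A and ACVR1 (-1.90) and SMAD4, the shared effector, 1.99-fold lower. The 27 genes had a median length of 54.8 kb, and of all genes of 50 to 100 kb 51.7% fell. The long repressors ZEB1 and ZEB2, 3.76-fold and 3.14-fold lower, moved opposite to SNAI1, which acts on many of the same genes, and the receptor decoy BAMBI rose by 0.97.

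In the Notch pathway 7 of 24 rose and 7 fell, where 32.2% of all genes rose and 30.1% fell. Beside LFNG, the target genes HES4 and HEY1 rose: HES4 had 4072, 3715 and 3807 in UV cells against 1556, 1549 and 1589 in untreated cells, a 2.47-fold rise, and HEY1 rose 2.36-fold. HEY2 was 1.44-fold lower, and NUMB, an inhibitor of Notch, 2.49-fold lower. The protease ADAM10 and the coactivator MAML1 of the same list also fell. Whether Notch signalling changed was not tested. Among nuclear receptors and coactivators 10 of 21 fell, with NR3C1, the glucocorticoid receptor, 4.01-fold lower after ESRRG. The 21 genes had a median length of 93.2 kb, and of all genes of 50 to 100 kb 51.7% fell. In NF-kappaB signalling 5 of 18 rose and 8 fell. The list had a median length of 51.2 kb, and of all genes of 50 to 100 kb 14.2% rose and 51.7% fell. Of 2 probes of the subunit RELA (10.3 kb) 1 rose 1.35-fold and the other did not pass (log2 change -0.03), and NFKB1 (116 kb) was 2.44-fold lower, and NFKBIA, the inhibitor that the pathway induces, did not pass (-0.13). In the MYC network 6 of 10 fell and USF2 rose by 0.34. The 10 genes had a median length of 15.8 kb, and of all genes of 10 to 20 kb 10.8% fell.

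In the Wnt list, with a median length of 45.0 kb, 12 of 28 fell and 3 rose, where 30.7% of all genes of 20 to 50 kb fell and 25.9% rose. The 12 include TCF4, which is not the Wnt effector TCF7L2 that goes by the same name but a helix-loop-helix E protein, 2.77-fold lower. The scaffold APC, with 117, 136 and 177 in UV cells against 306, 217 and 282 in untreated cells, was 1.88-fold lower. DVL2, which relays the signal from the receptor, rose 1.79-fold. In the extracellular matrix list 8 of 27 rose and 7 fell. These genes had a median length of 58.2 kb, and of all genes of 50 to 100 kb 14.2% rose and 51.7% fell. CTHRC1, a secreted collagen-related protein, had 2232, 2174 and 2714 in UV cells against 822, 743 and 927 in untreated cells, a 2.85-fold rise. The heparan sulfate polymerase EXT1 (317 kb) was 3.98-fold lower, with uneven untreated replicates, 2006, 1628 and 1204, and the laminin chain LAMC1 2.80-fold lower.

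Of 16 clock genes 5 rose and 7 fell. For this list and those that follow here, the shares over all genes were 32.2% higher and 30.1% lower. PER1, the immediate early gene of the clock, had 318, 362 and 350 in UV cells against 226, 194 and 163 in untreated cells, a 1.78-fold rise, while the activator CLOCK was 1.93-fold lower and the repressor CRY1 1.67-fold lower. Of 11 phosphatases and feedback inhibitors of MAP kinases 3 rose and 3 fell, with DUSP3 2.05-fold higher and SPRED2, an inhibitor of RAS signalling, 4.07-fold lower. Numbered zinc finger genes, many of them repressors of transposons, were divided evenly, with 54 of 178 up and 57 down. ZNF789 averaged 1144 ± 100.5 in UV cells and 378 ± 4.45 in untreated cells (SD, n = 3 each), a 3.01-fold rise, and ZNF438 (188 kb) was 3.18-fold lower. Of 7 measured cytokines and growth factors 4 rose and none fell, led by HBEGF and ADM.

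Components of mitochondria, ribosomes and chromatin that come from short genes moved up by small amounts. Of 60 subunits of oxidative phosphorylation 35 rose and none fell, with a median of 0.27. Apart from ATP5MK, the largest was ATP5PF, 1.69-fold, so that ATP5MK stood alone. Of 68 mitochondrial ribosomal proteins 38 rose and 7 fell (median 0.29), with MRPL43 at 584, 521 and 429 in UV cells against 214, 201 and 208 in untreated cells, a 2.44-fold rise. Of 29 measured cytosolic ribosomal proteins 12 rose and 1 fell (median 0.16), and of 29 proteasome subunits 11 rose and 2 fell (median 0.04). Replication-dependent histones, whose mRNAs end in a stem loop, rose in 8 of 11, with H2AC4 the largest at 2.14-fold, and the histone gene H4C15 fell by 0.56. Genes of a histone family share much sequence, so the probes may not tell them apart. All genes up to 5 kb had a median of 0.36 and those of 5 to 10 kb of 0.33, so that of these lists the histones alone, with a median of 0.46, lay above both.

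Stress pathways were divided, where 32.2% of all genes rose and 30.1% fell. In the integrated stress response 9 of 29 rose and 5 fell. ATF5 rose by 1.04, DDIT3, the pathway's death-promoting factor CHOP, had 3359, 3297 and 3162 in UV cells and 3342, 2332 and 2472 in untreated cells and did not pass (adjusted p = 0.056), and ATF4 fell by 0.42 with overlapping replicates. Heat shock proteins and chaperones had 9 of 41 up and 9 down, and HSPD1 did not pass. Of 2 probes of HSPA8 the dimmer 1 fell (-0.36) and the other did not pass (-0.17). In redox defence 15 of 29 rose and 5 fell. These genes had a median length of 12.7 kb, and of all genes of 10 to 20 kb 47.8% rose and 10.8% fell. NFE2L2, the transcription factor NRF2, was 2.22-fold lower, at 5132, 5547 and 5506 in UV cells against 11477, 12280 and 12236 in untreated cells, and its target HMOX1 rose 1.43-fold. NXN, nucleoredoxin, had 1056, 1255 and 1136 in UV cells against 1739, 1904 and 1834 in untreated cells, 1.59-fold lower. Among genes of metal handling the zinc exporter SLC30A1 rose 2.98-fold and 1 probe of the metallothionein MT1X 2.63-fold. The other probe of MT1X rose by 0.49 on the log2 scale.

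Proliferation genes fell more often than they rose, 40 of 77 against 14. The list had a median length of 29.7 kb, and of all genes of 20 to 50 kb 30.7% fell and 25.9% rose. Among the falls were CENPA, the kinesin KIF20B (2.60-fold lower), the spindle protein CENPE (log2 change -1.22), the kinase AURKA (-1.02) and the marker MKI67 (1.89-fold lower). Among the rises were cyclin E1, CCNE1, at 1982, 2067 and 2900 in UV cells against 1506, 1163 and 1119 in untreated cells (1.82-fold), its kinase CDK2 (1.67-fold), UBE2C, the ubiquitin-conjugating enzyme of mitotic exit (log2 change 0.66), and the transcription factor E2F1 (1.55-fold). E2F3, a longer relative at 91.8 kb, was 2.75-fold lower. Members up to 20 kb had a median of -0.02, and 8 rose and 9 fell, so the genes that fell were not all long. Of 15 housekeeping controls 6 rose and 3 fell, with PPIA 1.46-fold and B2M 1.37-fold higher, and HPRT1, which was 1.15-fold lower, reversed when arrays were centred on their medians.

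Chromosomes differed in the way their genes moved. The median log2 change was highest on chromosome 19 (0.27), where 52.7% of 509 genes rose and 12.2% fell, followed by chromosomes 16 and 17 (0.18 each). It was lowest on chromosomes 18 (-0.21), 13 (-0.18) and 4 (-0.12), and on chromosome 18 13.2% of 106 genes rose and 50% fell. The genes measured on chromosome 19 had a median length of 14.6 kb, and those on chromosome 18 of 54.4 kb.

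Of 773 genes with more than 1 probe, all probes rose in 205, all fell in 149, none passed in 163 and only some passed in 235. In 21 genes a probe rose and another fell. GFOD1, an oxidoreductase-like gene of 130 kb, had the widest gap, with log2 changes between 1.30 and -1.75 over 3 probes, followed by CCDC88C (0.41 and -1.32). Which transcripts these probes bind is not given in the annotation used here, so for such genes, and for those in which only some probes passed, the change holds for a probe and not for the gene. Of the 2803 probes without a gene symbol 32.2% rose and 18% fell, against 33.0% and 29.5% of those with one.

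The UV change could be compared with that of U373cc3, whose arrays are separate but were normalised together with these. Of the genes that changed in U373neo, 3658 moved the same way and also passed in U373cc3. The difference of the UV change passed for 522 of 7998 genes (6.53%), and over all 11602 probes for 716. The count of probes was 230 without UV replicate 2 of U373neo, 275 without UV replicate 3, 436 without untreated replicate 2 and 364 without untreated replicate 3, so it depends on which library is left out. FOS had the largest difference, 1.70 on the log2 scale (SE 0.12, adjusted p = 8.8e-05). In U373neo it rose as given above, whereas U373cc3 had 5420, 5504 and 5018 with UV and 5432, 5826 and 6356 without. The untreated level was thus much higher in U373cc3, and its UV change was -0.14. ATF3 differed by 1.38, with 5243, 4917 and 4150 with UV against 2536, 2550 and 2713 without in U373cc3, and ARC by 1.24, EGR1 by 1.03 and ADM, the vasodilator adrenomedullin, by 1.03. TBX2, a developmental repressor, differed by 1.16, as it rose by 0.26 in U373neo and fell in U373cc3 (-0.90). CDKN1A differed by 0.52 and NXN by -0.60, while for DDB2 the difference of 0.32 did not pass (adjusted p = 0.091).

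**Figure D5:**
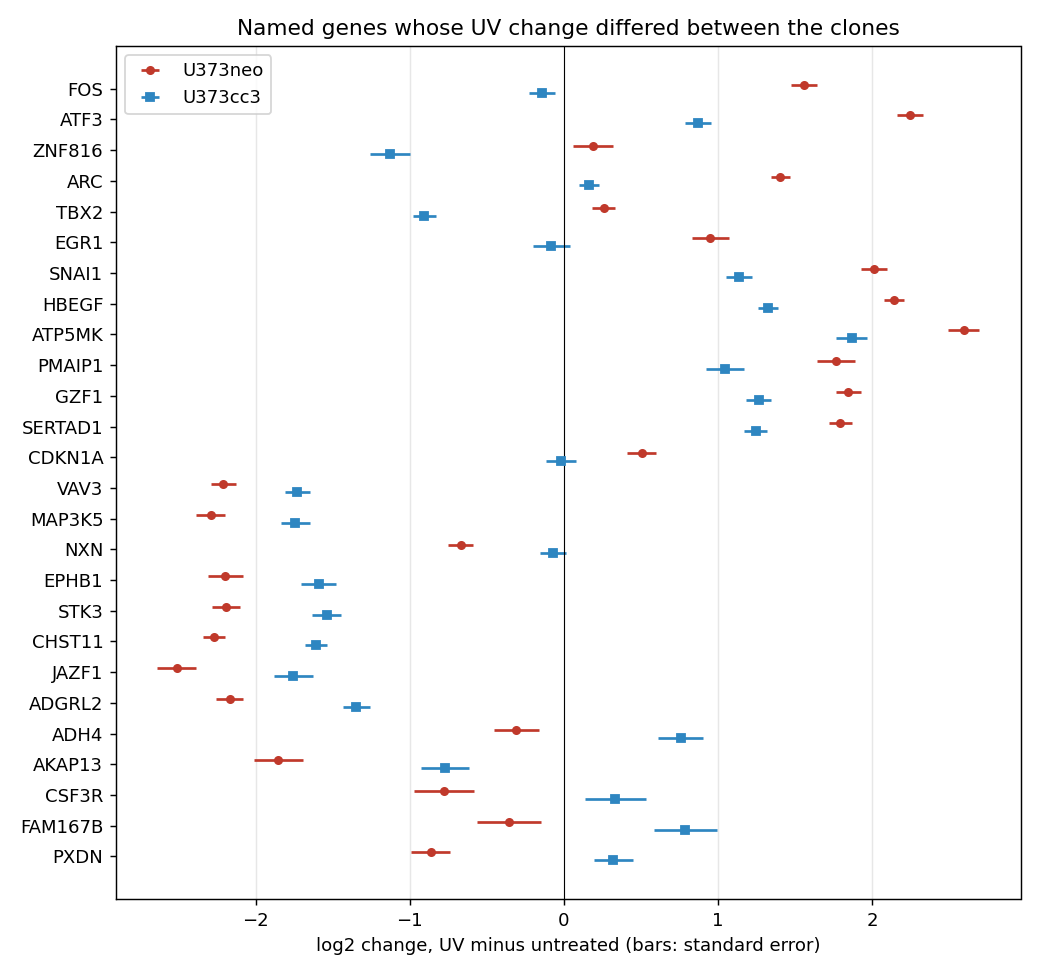
Log2 change (UV minus untreated) in U373neo and in U373cc3 for named genes whose UV change differed between the clones. Circles are U373neo and squares U373cc3, and bars are standard errors. At the top FOS lies at 1.56 in U373neo and near 0 in U373cc3, and at the bottom PXDN lies below 0 in U373neo and above 0 in U373cc3.

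In the other direction PXDN, a matrix peroxidase, fell 1.82-fold with UV in U373neo and rose by 0.32 in U373cc3, a difference of -1.19. AKAP13, an anchor protein of protein kinase A spanning 369 kb, had 210, 240 and 217 in UV cells against 1093, 610 and 771 in untreated U373neo cells, 3.61-fold lower, and fell by 0.77 in U373cc3. The median difference of the UV change, U373neo minus U373cc3, was 0.12 over genes up to 5 kb and -0.26 over genes over 300 kb, and 61 of 746 and 42 of 248 genes passed in these classes. The medians of the UV change itself in these classes were 0.36 and -0.49 in U373neo and 0.28 and -0.20 in U373cc3. Spearman's correlation of length and change was -0.54 in U373neo and -0.40 in U373cc3. No test was run of the difference between the clones over a class, and as each clone is 1 isolate, CC3 and other differences between the isolates cannot be told apart.

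Probes with values on the arrays of 1 treatment only could not be tested. On UV arrays only there were 741 probes, 348 with a gene symbol, and on untreated arrays only 698, 512 with a symbol. The genes of the first had a median length of 17.5 kb and those of the second of 82.1 kb. Most were dim, with median intensities of 125 and 141. The brightest on UV arrays were a probe of VPS24, part of the membrane-cutting ESCRT-III complex, with 3567, 4067 and 4256 in the 3 U373neo replicates, the pseudogene OR10B1P with 3435, 3168 and 3015, the RNA-binding HNRNPUL2 with 2999, 3421 and 3184, the adaptor EFS and BBLN. On untreated arrays they were EIF1B, a translation initiation factor, with 4608, 4643 and 4244, the phosphatase UBLCP1 with 4058, 4326 and 4475, the motor MYO10 with 4522, 3942 and 4173, USE1 and TEX30. A blank is not read as a level, since why these probes have none is not given in the sources used here.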

How the data were processed

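RNA was measured on Phalanx Human OneArray chips, 1 sample per array, in the dye Cy5. According to the methods, the authors averaged the intensity of each probe and normalized it by quantiles in GeneSpring GX, and the deposited table holds these linear intensity values. UV arrays share 1 distribution (medians 746 to 748) and untreated arrays another (895 to 896), so quantile normalization was run here on the 36 arrays together, with the 11602 probes that had no blank. Values were taken to log2, the 3 technical arrays of a replicate averaged, and the 12 replicates of 4 groups fitted with limma 3.58.1 in R 4.3.3 (lmFit, contrasts.fit, eBayes), with Benjamini-Hochberg adjustment over all probes and a threshold of 0.05. Fold changes were computed from mean log2 values. The number of arrays limits the precision, and the average SE of a log2 change was 0.112. The fit was tested on simulated data.

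Genes were named from the platform annotation, with symbols updated through the RefSeq gene table of GRCh38.p14 (1347 tested probes by a synonym, 41 unmatched), which also gave lengths and chromosomes. The probe with the highest mean stood for a gene. Named genes were the 15 largest rises and 15 largest falls among genes whose replicates did not overlap, up to 4 members of each list in each direction with members known for the list that did not pass, the genes the paper names, the genes whose change differed most between the clones and the brightest probes of 1 treatment. XPC, FOSB, RGS2, MEPCE, SETD2, CREBBP, XPO1, ERCC1, MAPK8, MAPK14, RPS6KB1, SMAD4, CENPE, AURKA, MKI67 and E2F1 fall outside this rule and were chosen after their values were seen, as were the genes named for disagreeing probes. The members and the lists were chosen with earlier results of these data known. The labels name biological replicates but not how the cultures were kept apart. Probes over 60000 (85) are near the limit of the scanner. Alternatives changed the scaling, the samples, the model, the probe filters and the averaging. The labels do not say whether replicates of the same number were paired, and the main fit did not pair them. Some items of the lists are not reported here.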

Additional observations from a re-analysis of the deposited data

Results flagged for a closer look

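The UV change differed between U373neo and U373cc3, by the interaction term of the same limma fit, in 26 named genes. They were named for their size of change, by the paper or for this difference. The genes named for this difference were picked because they passed, so their passing is not a result. The largest changes were picked by their size in U373neo, which favours a larger change there. Over all genes the difference passed for 6.53%. Values are log2 changes of U373neo minus U373cc3. The change was more positive in U373neo for FOS (1.70), ATF3 (1.38), ZNF816 (1.32), ARC (1.24), TBX2 (1.16), EGR1 (1.03), SNAI1 (0.88), HBEGF (0.82), ATP5MK (0.73), PMAIP1 (0.72), GZF1 (0.58), SERTAD1 (0.55) and CDKN1A (0.52). It was more negative in U373neo for VAV3 (-0.48), MAP3K5 (-0.55), NXN (-0.60), EPHB1 (-0.61), STK3 (-0.65), CHST11 (-0.66), JAZF1 (-0.76), ADGRL2 (-0.82), ADH4 (-1.07), AKAP13 (-1.08), CSF3R (-1.11), FAM167B (-1.14) and PXDN (-1.19). For ZNF816, FAM167B and ADH4 the change in U373neo itself did not pass, and NXN was low in U373cc3 in both treatments, at 128, 134 and 142 with UV against 132, 140 and 153 without.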

How the results depend on the processing

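Of 304 named genes followed through all alternatives, giving 6028 values, 5808 kept their direction and side of the threshold, 210 no longer passed, 4 newly passed and 6 reversed. The 30 largest changes kept both in all 595 values. The reversed values all came with arrays centred on their medians, where RPL7L1 was 0.032, MRPL39 0.015, MRPL3 0.071, PSMA5 0.21, HPRT1 0.22 and CNN3 0.023. Intensities as deposited gave 106 probes risen at least 2-fold, against 215. The median of genes up to 5 kb was 0.30 as deposited and 0.54 after centring, and that of genes over 300 kb was -0.65 and -0.41, and -0.58 without the dimmest 25% of probes. With the replicate block 6758 probes changed and 448 differed between the clones, against 716. The correlations of deviations of same-numbered replicates were -0.34, -0.22 and -0.19, and 0 of 3 UV replicates correlated best with its own number. With 3 replicates per group these values cannot decide whether same-numbered samples were paired. With single arrays and the serial range in the model 1803 differed. Leaving out 1 U373neo replicate gave between 6275 and 6667 changed probes and between 230 and 977 probes that differed between the clones. The methods' t-test gave 6568 probes at the methods' threshold and 5678 after Benjamini-Hochberg. The cause of these shifts was not tested. Dim probes, probes near the limit of the scanner and blanks limit what can be seen of deep falls and of very bright RNAs.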
